A study of Homo sapiens with 6 samples.

Results

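The 10 genes described here are transcription factors and markers of the epithelial-mesenchymal transition (EMT): SNAI1, SNAI2, ZEB1, ZEB2, TWIST1, TWIST2, VIM, FN1, GRHL2 and ESRP1. The choice is by gene symbol and uses no measured value, although earlier results of these data were known when these genes and the gene lists below were chosen. Each was found by its Entrez gene ID and had 1 probe set, so the genes were 10 of 23931 named genes on the array. They were measured in 6 subcutaneous xenografts of Huh7, an established human liver cancer cell line, in nude mice. In 3 tumours the cells stably carried the plasmid pRcCMVi.hIR-A(GFP), which expresses insulin receptor isoform A (IR-A), and in 3 they carried the empty vector (control). The design text gives selection by G418 resistance and by cytometry for GFP, the green fluorescent protein, and each tumour gave 1 Affymetrix array. Nude mice lack a normal thymus and most T cells but keep other host cells. No label ties a tumour to a mouse or a culture. The p-values therefore reflect the spread among these 6 samples alone, and that spread may be technical.

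In an EMT, epithelial cells lose cell junctions and polarity and take on a motile, matrix-producing state. Zinc finger factors of the SNAI and ZEB families and basic helix-loop-helix (bHLH) factors of the TWIST family repress E-cadherin (CDH1) and other epithelial genes, the SNAI and ZEB factors through E-box motifs in their promoters. GRHL2 and the splicing factor ESRP1 act on the epithelial side, and GRHL2 and ZEB1 repress each other. Vimentin (VIM) is the intermediate filament of mesenchymal cells, and fibronectin (FN1) a matrix protein that mesenchymal cells lay down. Hepatocytes are a special case, since they secrete fibronectin into plasma as a normal product.

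MicroRNAs of the miR-200 family repress ZEB1 and ZEB2, and both factors repress the miR-200 genes in turn. Their mature sequences are shown because the array also has probe sets for their hairpins, described beside the ZEB genes. Capitals mark the seed, bases 2 to 8, which pairs with the target, and the sequences are those of RefSeq on GRCh38.p14.
hsa-miR-200b-3p: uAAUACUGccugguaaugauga
hsa-miR-200c-3p: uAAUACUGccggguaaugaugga
hsa-miR-429: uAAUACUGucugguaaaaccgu
hsa-miR-200a-3p: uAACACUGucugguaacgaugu
hsa-miR-141-3p: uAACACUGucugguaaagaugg
The first 3 share the seed AAUACUG and the other 2 the seed AACACUG. The miR-200b, miR-200a and miR-429 sequences lie together on the plus strand of chromosome 1 (chr1:1167160-1167181, chr1:1167916-1167937 and chr1:1169055-1169076), and those of miR-200c and miR-141 on the plus strand of chromosome 12 (chr12:6963742-6963764 and chr12:6964155-6964176).

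The comparison asks whether tumours with the added receptor differed in EMT genes. INSR, the gene of the added receptor, read 10.65, 11.31 and 11.01 on the log2 scale in IR-A tumours, against 8.04, 7.61 and 8.47 in control tumours. The groups lay far apart, as labelled, with a difference of 2.95 (SE 0.26), although its adjusted p in limma was 0.0769 (0.0261 when control tumour 2 was left out). The hepatocyte products albumin (ALB) and alpha-fetoprotein (AFP) were bright in all 6 tumours, at 12.82 to 13.09 and 12.38 to 12.74. Array medians ran from 4.66 to 4.74. Control tumour 2 stood apart, with a mean correlation across probe sets of 0.987 with the IR-A tumours and 0.982 with the other controls. Differences below are IR-A means minus control means of log2 signals, with the moderated standard error and 95% interval of limma. Over all 24726 probe sets limma made no call at an adjusted p of 0.05, while 14.1% had an unadjusted p under 0.05. That count of 0 depended on the settings. It was 308 when control tumour 2 was left out, and 11 to 20 with array weights or a filter on dim probe sets. Control tumour 2 was the control most like the IR-A tumours, so leaving it out tends to widen group differences and narrow the control spread. Calls made only without it, here and below, are therefore no independent support for a difference. Over all probe sets, groups did not overlap for 17.2%, with the IR-A tumours higher for 7.73% and lower for 9.45%.

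None of the 10 genes passed the test, and 0 of 10 had an unadjusted p under 0.05, against 14.1% of all probe sets. The groups of 1 gene, ESRP1, did not overlap and were lower in IR-A tumours (10%, against 17.2% of all probe sets in either direction and 9.45% on the lower side). The difference was above 0 for 6 genes and below 0 for 4. The median size of the difference, regardless of sign, was 0.092, against 0.13 over all probe sets. For 8 of the 10 genes the 95% interval lay within a 2-fold change either way, and for VIM and ESRP1 it reached further. Only SNAI1, ZEB1, VIM and FN1 had a mean signal at or above the median probe set of 4.71. RMA, the method named for these values, compresses the differences of dim probe sets, so the intervals of the other 6 genes describe array signal rather than transcript.

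**Figure D1:**
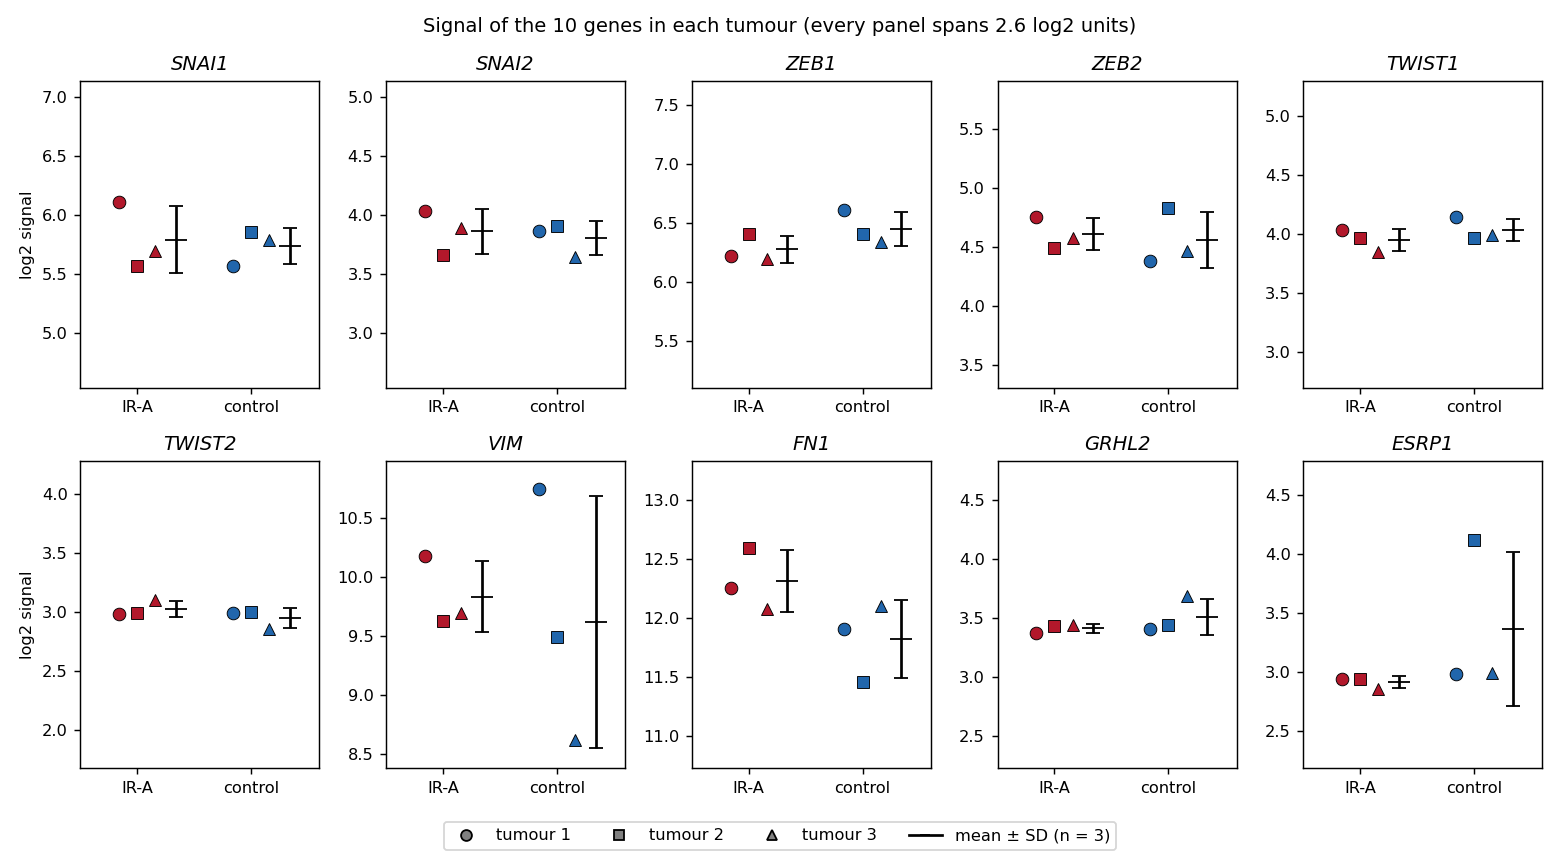
Log2 signal of each of the 10 genes in 3 IR-A tumours (red, left) and 3 control tumours (blue, right), with the mean and SD of each group in black. The groups overlap in every panel but ESRP1, where control tumour 2 alone reads 4.12, and VIM spreads from 8.62 to 10.74 among control tumours.

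SNAI1 (Entrez gene 6615), the Snail repressor, read 6.11, 5.56 and 5.70 in IR-A tumours and 5.57, 5.86 and 5.78 in control tumours. The highest value was that of IR-A tumour 1, and the other 2 IR-A tumours lay within the control range or just under it. The difference was 0.05 (SE 0.16), and its interval ran from 0.79-fold to 1.36-fold (adjusted p = 0.930, limma). Its sign depended on single tumours, at -0.11 when IR-A tumour 1 was left out and -0.03 when control tumour 1 was. SNAI2 (6591), the related factor Slug, was dim, at 4.03, 3.66 and 3.89 in IR-A tumours and 3.86, 3.90 and 3.64 in control tumours. Its groups overlapped almost fully, with a difference of 0.06 (SE 0.13). That difference was also below 0 without IR-A tumour 1 (-0.03) or control tumour 3 (-0.02). SNAI3, the third member of the family, was near the median probe set and averaged 4.72 ± 0.09 in IR-A and 5.11 ± 0.30 in control tumours (SD, n = 3 each). Its difference of -0.39 (SE 0.16) had an unadjusted p of 0.0497 in limma and an adjusted p of 0.353, so it did not pass. SNAI3, like other family relatives given below, was named after its values were seen.

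ZEB1 (6935), a zinc finger and homeodomain repressor of CDH1, read 6.22, 6.41 and 6.20 in IR-A tumours and 6.61, 6.41 and 6.34 in control tumours. The value of IR-A tumour 2 equalled that of control tumour 2, and control tumour 1 was highest. The difference was -0.17 (SE 0.11), with an interval from -0.45 to 0.10 and an adjusted p of 0.565 in limma. It was below 0 in every alternative run on it and ran from -0.24 to -0.10 when 1 tumour was left out. ZEB2 (9839) read 4.75, 4.49 and 4.57 in IR-A tumours and 4.38, 4.83 and 4.47 in control tumours. Here control tumour 2 was highest and control tumour 1 lowest, so all IR-A tumours lay inside the control range. The difference was 0.05 (SE 0.15) and lay below 0 when control tumour 1 (-0.04) or IR-A tumour 1 (-0.03) was left out.

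The miR-200 hairpins, whose mature sequences are printed above, were dim in both groups. They were added after values were seen. The MIR200B probe set read 3.87, 4.25 and 3.92 in IR-A and 3.66, 3.96 and 4.01 in control tumours, a difference of 0.13 (SE 0.15). MIR200A, MIR200C, MIR141 and MIR429 differed by -0.03, -0.0024, -0.13 and -0.19, with groups that overlapped in each case. For MIR429, leaving out control tumour 2 gave -0.38, with groups that did not overlap, an unadjusted p of 0.00814 and an adjusted p of 0.111 in limma. None of the 5 passed, and a hairpin probe set does not measure the mature microRNA.

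TWIST1 (7291), a bHLH factor of mesoderm and neural crest, read 4.03, 3.97 and 3.85 in IR-A tumours and 4.14, 3.97 and 3.99 in control tumours. IR-A tumour 2 and control tumour 2 had the same value, and the difference was -0.09 (SE 0.10). TWIST2 (117581), its close relative, was dim, at percentile 12.8 of all probe sets, with 2.98, 2.99 and 3.10 in IR-A tumours and 2.99, 3.00 and 2.85 in control tumours. Its difference was 0.07 (SE 0.09). Both lay within the spread between tumours, and whether the probe sets separate these similar genes was not checked.

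TWIST factors bind DNA as dimers with E proteins, which the ID proteins sequester. Of 4 ID genes in the list, 3 were measured, and 2 had lower signal with IR-A, with an unadjusted p under 0.05 but no call after adjustment, against 7.03% of all probe sets on that side. ID1 read 6.46, 5.61 and 6.96 in IR-A tumours and 7.91, 7.29 and 7.29 in control tumours. Every IR-A value was below every control value, and the difference was -1.15 (SE 0.36, adjusted p = 0.241 in limma). ID3 read 5.06, 4.49 and 5.38 in IR-A tumours and 6.37, 5.76 and 5.97 in control tumours, also without overlap (-1.06, SE 0.26, adjusted p = 0.176 in limma). ID4 was dim and differed by -0.09. The E proteins TCF3, TCF4 and TCF12 differed by -0.17, 0.09 and 0.01, with groups that overlapped.

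VIM (7431) was the gene with the widest spread. It read 10.18, 9.63 and 9.69 in IR-A tumours and 10.74, 9.49 and 8.62 in control tumours. All 3 IR-A tumours lay between the highest and the lowest control, control tumours 1 and 3, which differed 4.36-fold, while the IR-A tumours spanned 1.46-fold. The SD among controls, 1.07, was exceeded by 105 of the 24726 probe sets, and the SD among IR-A tumours was 0.30. The difference was 0.21 (SE 0.51), with an interval from 0.50-fold to 2.68-fold (adjusted p = 0.896, limma). It was 0.78 without control tumour 1 and -0.29 without control tumour 3, so neither its size nor its sign was fixed by these tumours. Whether the spread itself differed between the groups was not tested.

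FN1 (2335) had the largest difference above 0 among the 10 genes. It read 12.26, 12.60 and 12.08 in IR-A tumours and 11.91, 11.46 and 12.10 in control tumours. The groups overlapped by a small margin, since control tumour 3 was above IR-A tumour 3. The difference was 0.49 (SE 0.21), or 1.40-fold, with an interval from 0.997-fold to 1.97-fold. The unadjusted p was 0.0517 and the adjusted p 0.360 in limma, and a two-sided exact permutation test over the 6 tumours gave p = 0.2, where 3 against 3 values cannot go below 0.1. Without control tumour 2, the lowest of all, the difference was 0.30, and without control tumour 3 it was 0.62. Its unadjusted p was under 0.05 in 6 of 15 alternatives and its adjusted p in none (lowest 0.245). FN1 lay at percentile 99.9 of probe sets.

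The promoters of FN1 and VIM are shown because these are the 2 structural markers among the 10 genes. Each line gives the 250 bases before the gene's start in RefSeq on GRCh38.p14. Capitals mark every match, on either strand, to 5 motifs: the SNAI and ZEB E-box (CACCTG or CAGGTG), the cyclic AMP response element CRE (TGACGTCA), the CCAAT box (CCAAT or ATTGG), the GC box (GGGCGG or CCGCCC) and the TATA box (TATAAA or TTTATA).
FN1 promoter, chr2:215436069-215436318, minus strand: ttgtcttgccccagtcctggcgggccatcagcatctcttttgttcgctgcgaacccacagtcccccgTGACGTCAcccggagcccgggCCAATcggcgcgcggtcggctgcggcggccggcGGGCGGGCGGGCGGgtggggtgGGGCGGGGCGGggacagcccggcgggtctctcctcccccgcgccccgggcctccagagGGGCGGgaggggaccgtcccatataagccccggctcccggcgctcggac
VIM promoter, chr10:17227991-17228240, plus strand: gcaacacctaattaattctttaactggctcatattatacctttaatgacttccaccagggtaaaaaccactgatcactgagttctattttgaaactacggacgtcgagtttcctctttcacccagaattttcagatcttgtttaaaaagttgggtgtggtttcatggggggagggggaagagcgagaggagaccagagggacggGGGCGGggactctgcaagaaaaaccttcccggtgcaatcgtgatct
The FN1 window held 1 CRE, from -183 to -176 counted from the start, 1 CCAAT box and 6 GC boxes, some of which overlap by a base or more. The CRE is found in 1.65% of the 35116 windows of this length, the CCAAT box in 32% and the GC box in 42.6%. The VIM window held 1 GC box, from -46 to -41, and no match to the other motifs. Of the 10 genes, 5 had windows in the table, and the E-box, found in 17.5% of all windows, occurred only for ZEB1, in 2 of its 7. A match is a run of letters and not a measured site, and the arrays carry no information on binding.

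Fibronectin acts through integrin receptors and is bound into the matrix with other proteins. Of 12 such genes measured, 4 were higher and 1 lower in IR-A tumours with an unadjusted p under 0.05, and none passed after adjustment. The background was 7.1% of all probe sets higher and 7.03% lower. The median difference of the list was 0.22, against -0.03 over all probe sets. ITGA5, the alpha chain of the main fibronectin receptor, read 8.21, 8.11 and 8.01 in IR-A tumours and 6.08, 7.04 and 6.81 in control tumours. The IR-A tumours were close together and clear of every control (1.47, SE 0.24, adjusted p = 0.131 in limma). With control tumour 2 left out, limma gave ITGA5 a difference of 1.67 and an adjusted p of 0.0460. Its beta chain ITGB1 read 10.12, 10.12 and 10.01 in IR-A tumours and 9.84, 9.79 and 9.98 in control tumours, a difference of 0.21 (SE 0.10) with an adjusted p of 0.396 in limma. ITGB3, the beta chain of another receptor for fibronectin and vitronectin, read 6.14, 5.75 and 5.13 in IR-A tumours and 4.22, 4.66 and 4.13 in control tumours. TGM2, a transglutaminase that crosslinks fibronectin, differed by 0.70 (SE 0.18, adjusted p = 0.190 in limma), and the groups did not overlap. The matrix protein FBLN2, at -0.53 (SE 0.15), was the 1 gene on the lower side with an unadjusted p under 0.05. Of the 4 list members below 0, LTBP1, which binds latent TGF-beta in the matrix, was at -0.82 (SE 0.36), with overlapping groups. Its adjusted p in limma was 0.373, and 0.0499 when control tumour 2 was left out. In other alternatives it rose as high as 0.700.

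Among 19 measured of 20 other mesenchymal genes, 2 were higher and 1 lower at an unadjusted p under 0.05 (15.8%, against 14.1% of all probe sets), with a median of -0.02. FBN1, the microfibril protein fibrillin, read 6.18, 5.73 and 4.76 in IR-A tumours and 4.47, 4.30 and 4.17 in control tumours, so all IR-A tumours were above the controls but spread widely. SPARC, a collagen-binding matrix protein, differed by 1.10 (SE 0.36, adjusted p = 0.255 in limma) and CCN2, a matrix growth factor modulator, by -0.82 (SE 0.26, adjusted p = 0.258 in limma). N-cadherin, CDH2, which replaces E-cadherin in many mesenchymal cells, differed by 0.47 (SE 0.21) with overlapping groups.

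In bulk tumours, fewer cells of a type and less RNA per cell cannot be told apart, and VIM and FN1 are also made by stromal cells. The array was designed for human genes, and RNA of the mouse host is read only where it binds. Of 10 fibroblast markers, 3 had higher signal with IR-A and an unadjusted p under 0.05 (LUM 1.26, COL1A2 0.83 and COL1A1 0.40), against 7.1% of all probe sets. In the list 7 were above 0 and 3 below, with a median of 0.11. PDGFRA was at -0.87 (SE 0.57) with overlapping groups, and FAP at -0.08 without overlap. The mean of the list was 4.58 to 4.67 in IR-A tumours and 4.24 to 4.56 in control tumours. Of the 10, 6 had a mean at or above the median probe set. The others were LUM, at 4.18 to 4.33 in IR-A and 2.68 to 3.16 in control tumours, and DCN, FAP and POSTN, at 2.56 to 2.58, 2.90 to 3.06 and 3.17 to 3.37 over all tumours. Of 10 endothelial markers, 4 were above 0, and 1, PECAM1 (0.51), had an unadjusted p under 0.05 (10%, against 14.1% of all probe sets), and the list mean was 3.90 to 3.95 in IR-A and 3.87 to 3.98 in control tumours. Macrophage markers had a list mean of 5.39 to 5.49 in IR-A tumours and 5.23 to 5.28 in control tumours. Their median difference was only 0.0076, with 5 above 0 and 5 below, and TYROBP had the largest difference. The leukocyte marker PTPRC was dim at 2.84 to 2.99. Of the 10 macrophage markers, 3 had an unadjusted p under 0.05 (30%, against 14.1% of all probe sets). TYROBP (1.78) and CD68 (0.62) were above 0 and FCER1G (-0.60) below. None of the 8 pericyte and smooth muscle markers had an unadjusted p under 0.05. RGS5, TAGLN and CNN1 had the smallest p of them, at differences of 0.46, 0.47 and -0.40. The endothelial genes ERG and ENG differed by -0.21 and 0.10. When control tumour 2 was left out, limma called LUM (adjusted p = 0.0339) and TYROBP (adjusted p = 0.0363), which had adjusted p-values of 0.106 and 0.131 over all 6 tumours. In other alternatives their adjusted p in limma rose as high as 0.477 and 0.486. The part of host cells in the FN1 and VIM values was not tested.

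GRHL2 (79977), a grainyhead factor that activates junction genes, was dim at percentile 25.9. It read 3.37, 3.43 and 3.43 in IR-A tumours and 3.41, 3.43 and 3.68 in control tumours, a difference of -0.10 (SE 0.11) that came to -0.01 without control tumour 3. Control tumour 3 alone stood above a narrow band that held the other tumours. Its relative GRHL1 differed by 0.17 (SE 0.25). GRHL3 was also dim, at 3.54, 3.70 and 3.54 in IR-A tumours and 4.10, 3.86 and 4.16 in control tumours, and its groups did not overlap (-0.45, SE 0.11, adjusted p = 0.186 in limma).

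ESRP1 (54845), which drives epithelial splice forms of genes such as FGFR2 and CD44, rested on 1 tumour. It read 2.95, 2.94 and 2.86 in IR-A tumours and 2.99, 4.12 and 2.99 in control tumours. Control tumour 2 was 1.12 above the next value, and the other 5 tumours spanned 0.13, with the 3 IR-A tumours lowest. ESRP1 was dim, at percentile 17.4, and the highest IR-A value (2.95) lay just under the lowest control value (2.99). The difference of -0.45 (SE 0.30, adjusted p = 0.579 in limma) was -0.08 without control tumour 2. ESRP2, the relative with the same function, was far up the array, at percentile 80.4. It read 8.16, 7.63 and 7.11 in IR-A tumours and 6.78, 7.20 and 7.07 in control tumours, a difference of 0.62 (SE 0.27) with an unadjusted p of 0.0556 and an adjusted p of 0.370 in limma. The group difference was therefore below 0 for ESRP1 and above 0 for ESRP2, and neither passed. Of 4 genes that ESRP1 splices, none had an unadjusted p under 0.05. ENAH, CTNND1 and FGFR2 differed by 0.32, -0.36 and 0.26, and the splice forms themselves are not resolved by 1 value per gene.

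**Figure D2:**
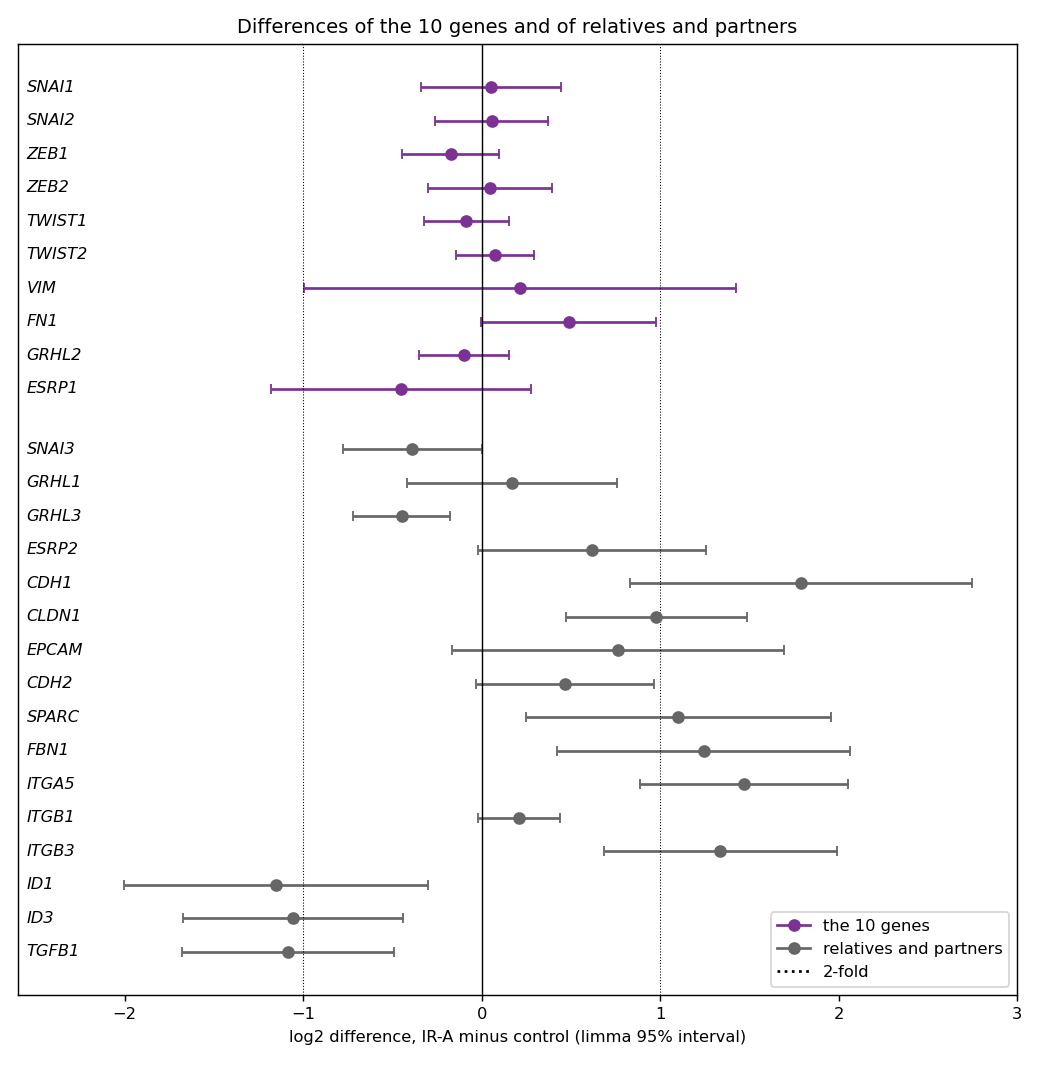
Log2 difference, IR-A minus control, of the 10 genes (purple) and of relatives and partners (grey), as dots with limma's 95% intervals. Dotted lines mark a 2-fold change. The relatives and partners were picked by hand, and others with small differences, such as KRT18 (-0.10), are not drawn. The 6 SNAI, ZEB and TWIST genes lie between -0.17 and 0.07, while CDH1 lies at 1.79, ITGA5 at 1.47 and ID1 at -1.15.

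The epithelial side of the transition holds the genes that these repressors act on. Of 26 epithelial genes and regulators, 17 were above 0, with a median of 0.24. At an unadjusted p under 0.05 there were 7 higher and 1 lower (30.8% in all, against 14.1% of all probe sets), and none passed after adjustment. CDH1, E-cadherin, the classic target of SNAI and ZEB factors, read 11.12, 11.06 and 10.54 in IR-A tumours and 8.19, 9.59 and 9.59 in control tumours (1.79, SE 0.40, adjusted p = 0.161 in limma). CLDN1, a tight junction protein, read 11.39, 10.76 and 11.20 in IR-A tumours and 9.83, 10.41 and 10.17 in control tumours. For both genes all IR-A tumours were above all controls, and CLDN1 differed by 0.98 (SE 0.21, adjusted p = 0.155 in limma). The polarity gene LLGL2 differed by 0.80 (SE 0.24) and the RNA-binding protein RBM47 by 0.45 (SE 0.14). The keratins KRT8 and KRT18, filament proteins of hepatocytes, differed by -0.28 (SE 0.15) and -0.10 (SE 0.11), so epithelial genes did not all lie on the same side of 0.

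**Figure D3:**
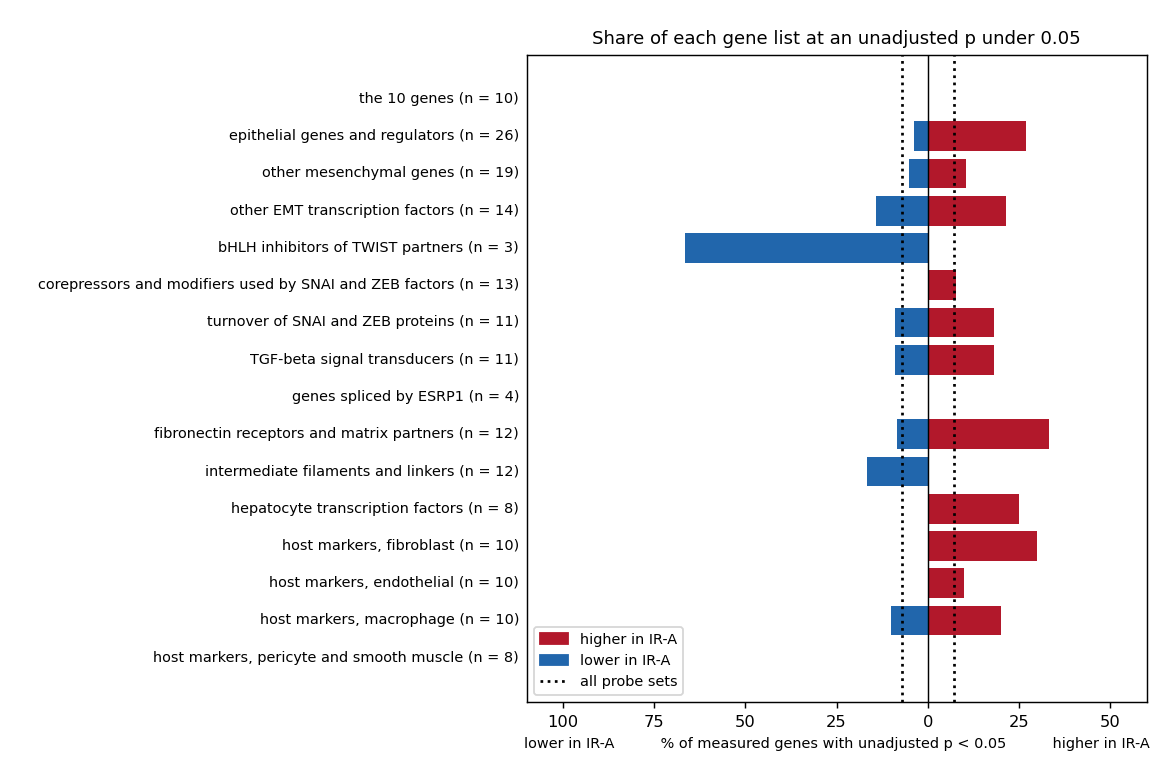
Share of the measured genes of each list with an unadjusted p under 0.05, higher in IR-A tumours to the right and lower to the left, in percent. Dotted lines give all probe sets, 7.1% higher and 7.03% lower. The 10 genes have no bar, and epithelial genes show 7 of 26 higher.

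The lists of pathway genes, partners and host cell markers, without the 10 genes themselves, hold 173 genes, of which 164 were measured. Of these, 41 (25%) had an unadjusted p under 0.05, 29 higher and 12 lower, against 14.1% of all probe sets, and none passed after adjustment. Among 14 measured of 16 other EMT transcription factors, 8 were above 0 and 6 below, and 3 were higher and 2 lower at an unadjusted p under 0.05 (35.7%). SOX4 differed by 0.42 (SE 0.15) and RUNX2 by 0.44 (SE 0.17), while the embryonic factor GSC was dim and differed by -0.29 (SE 0.11). Among 13 corepressors and chromatin modifiers that SNAI and ZEB factors use, 4 were above 0 and 9 below. At an unadjusted p under 0.05 there was 1 (7.69%), the LIM protein AJUBA at 0.32 (SE 0.13). The histone demethylase KDM1A and the lysyl oxidase LOXL2 differed by -0.23 and -0.24.

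SNAI and ZEB proteins are degraded quickly, which transcript arrays do not show. Of 11 measured of 13 genes that control this turnover, 2 were higher and 1 lower at an unadjusted p under 0.05 (27.3%, against 14.1% of all probe sets). LATS2, a kinase that stabilises Snail, read 5.66, 6.03 and 5.73 in IR-A tumours and 6.33, 6.35 and 6.36 in control tumours. The control values were within 0.03 of each other and above all IR-A values (-0.54, SE 0.12, adjusted p = 0.160 in limma). The ubiquitin ligase components FBXL5 and SIAH1 differed by 0.64 (SE 0.18) and 0.58 (SE 0.22). In the TGF-beta pathway, a main inducer of SNAI and ZEB genes, 5 of 11 genes were above 0 and 6 below, and 2 were higher and 1 lower at an unadjusted p under 0.05 (27.3%). TGFB1 read 6.87, 7.17 and 7.21 in IR-A tumours and 8.19, 7.67 and 8.64 in control tumours (-1.08, SE 0.25, adjusted p = 0.165 in limma, and 0.0467 when control tumour 2 was left out), while the pathway inhibitor SKIL (0.50, SE 0.13) and the receptor TGFBR1 (0.43, SE 0.15) were on the higher side.

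Among 12 intermediate filament genes and linkers, which include relatives and partners of vimentin, 3 were above 0 and 9 below. Of these, 0 were higher and 2 lower at an unadjusted p under 0.05 (16.7%, against 14.1% of all probe sets). Nestin, NES, a filament protein that assembles with vimentin, read 5.29, 5.77 and 5.76 in IR-A tumours and 6.95, 5.82 and 7.01 in control tumours (-0.99, SE 0.34, adjusted p = 0.276 in limma, and 0.0423 when control tumour 2 was left out). LMNB1, a nuclear lamin, differed by -0.24 (SE 0.09). Of 11 hepatocyte transcription factors 8 were measured, of which 5 were above 0. At an unadjusted p under 0.05 there were 2 (25%), NR5A2 (0.44, SE 0.16) and PROX1 (0.37, SE 0.14). ONECUT1 had a larger difference of 1.01 (SE 0.43), with overlapping groups and an unadjusted p of 0.0525 in limma.

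The spread among control tumours ran through several of these genes, and the following were picked after their values were seen. Control tumour 1, highest in VIM, also had the highest TGFB2, at 7.28, against 4.31, 3.94 and 4.27 in IR-A tumours and 4.29 and 4.19 in the other controls. It likewise had the highest PDGFRA, at 7.86, against 5.77, 5.40 and 5.83 in IR-A tumours and 6.31 and 5.43 in the other controls. The same tumour had the lowest CDH1 (8.19) and the lowest EPCAM (7.72, against 9.80, 9.11 and 9.08 in IR-A tumours and 9.06 and 8.92 in the other controls). Other mesenchymal and epithelial genes went the other way. Control tumour 1 also had the lowest SPARC of the 6 tumours, at 5.46, and the highest KRT18, at 9.61.

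**Figure D4:**
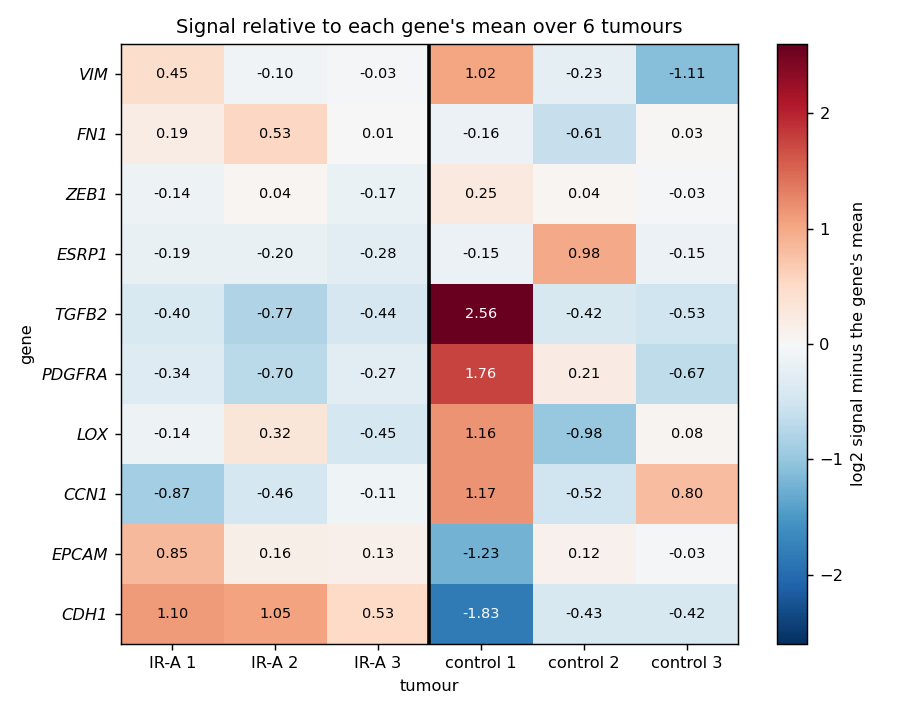
Log2 signal of 10 genes in each tumour minus the gene's mean over the 6 tumours, IR-A tumours to the left of the black line and controls to the right. Control tumour 1 reads 7.28 for TGFB2 and 10.74 for VIM, the highest of the 6 tumours, and 8.19 for CDH1, the lowest, and control tumour 2 alone is high for ESRP1. SPARC (5.46, the lowest of the 6 tumours) and KRT18 (9.61, the highest) went the other way in control tumour 1 and are not drawn.

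The genes with the most similar pattern were found by Pearson's r over the 6 tumours for the 4 genes at or above the median probe set. For FN1 these were the transcription factor ETS2 (r = 0.997), GLTPD2 (0.993) and the desmosomal cadherin DSC2 (0.991). For ZEB1 they were TBC1D4, a substrate of the insulin-regulated kinase AKT (0.993), CLPSL2 (0.990) and the clathrin adaptor subunit AP1B1 (0.987). For VIM they were LYG2 (0.986), the phospholipase PLA2G4A (0.983) and TRPS1 (0.979), and for SNAI1 CEP192P1 (0.994), NCK1-DT (0.973) and DRAM2 (0.971). These r values, the highest among 23931 genes over 6 points, are a description only. They also take no account of the size of a change. LYG2, TRPS1 and CEP192P1 were dim and varied little, at 2.85 to 3.07, 2.94 to 3.01 and 3.15 to 3.43, while VIM ran from 8.62 to 10.74. PLA2G4A followed VIM at 4.45, 4.09 and 4.31 in IR-A tumours and 4.90, 3.87 and 3.28 in control tumours, and DSC2 followed FN1 at 8.54, 8.97 and 8.13 in IR-A tumours and 7.95, 7.46 and 8.22 in control tumours.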

How the data were processed

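The deposited table holds log2 signals, 1 per gene-level probe set and array, made by the authors. Per the submitters' processing notes, RMA and Partek were used, and the notes state no version. Per the labels' protocols, 500 ng of total RNA per tumour entered the Affymetrix labelling for whole transcripts. For the array model and genome build, nothing is stated in the labels. The log2 scale was read from the range of the values. Probe sets were named from GEO's platform annotation through Entrez IDs, which gave 1 symbol for 23934 of 24726; where a symbol had several probe sets, the brightest was used. Sequences came from RefSeq tables of GRCh38.p14.

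IR-A and control tumours, 3 each, were compared with limma 3.58.1 in R 4.3.3 (lmFit, eBayes, no filter), with p-values adjusted over all probe sets by Benjamini-Hochberg. The 10 genes and all gene lists were chosen with earlier results of these data known. The named genes were the 10 members, INSR, CDH1, the 3 genes of smallest unadjusted p in each list and, for each member at or above the median probe set, the 3 genes of highest Pearson r. Other genes named fell outside this rule. They should be read as chosen after values were seen, even where a paragraph does not say so. In simulated data of 24726 probe sets the fit recovered, at an adjusted p under 0.05, 48% of genes shifted by 1 on the log2 scale and 92.1% of those shifted by 2. The simulation used independent normal noise, SDs shuffled over probe sets and no outlying tumour. These shares therefore need not hold for the arrays here. The alternatives were quantile normalization, centring on the median, leaving out the dimmest 25% or 50%, array weights, an intensity trend, no moderation, robust moderation, a replicate block and leaving out each tumour. The number of arrays limits the precision. Python 3.11.15 and matplotlib 3.10.9 made the figures.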

Additional observations from a re-analysis of the deposited data

How the results depend on the processing

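None of the 10 genes passed an adjusted p of 0.05 in limma in any of the 15 alternatives, and 8 of them were tested without the dimmest 25% of probe sets and 4 without the dimmest 50%. The count of all probe sets called, 0 as reported (3493 at an unadjusted p under 0.05), was 14 without the dimmest 25%, 20 without the dimmest 50%, 11 with array weights and 0 to 308 with 1 tumour left out, with calls only without control tumour 2. INSR was called with both filters, with array weights and without control tumour 2. TGFB1, ITGA5, LTBP1, NES, LUM and TYROBP were called only without that tumour, the control most like the IR-A tumours. For TGFB1 to TYROBP, in that order, the adjusted p in limma rose as high as 0.490, 0.486, 0.700, 0.633, 0.477 and 0.486. The count of the 10 genes at an unadjusted p under 0.05, 0 as reported, was 1, always FN1, with quantile normalization, with centring, without the dimmest 25%, with an intensity trend, and when IR-A tumour 3 or control tumour 3 was left out, and ran from 0 to 1 over left-out tumours. The pathway genes at an unadjusted p under 0.05, 41 as reported, were 21 with no moderation and 22 (without IR-A tumour 1) to 48 (without control tumour 2) with 1 tumour left out. Among 56 genes followed singly, signs changed only when a tumour was left out, in 4 of the 10 genes and in ID4. The differences ran from -0.11 to 0.16 for SNAI1, -0.028 to 0.16 for SNAI2, -0.041 to 0.18 for ZEB2, -0.29 to 0.78 for VIM and -0.18 to 0.036 for ID4; the cause was not tested. No sign of pairing by replicate number was seen. Deviations of same-numbered tumours from their group means correlated at -0.29, -0.36 and 0.02, and no tumour correlated best with its own number. Deviations within a group of 3 depend on each other, so these values cannot exclude a pairing. With the replicate block, 0 probe sets and 0 of the 10 genes were called and 34 pathway genes had an unadjusted p under 0.05.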

Other observations

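Antisense and divergent transcripts of the 10 genes had probe sets of their own. ZEB2-AS1 read 4.23, 4.30 and 4.10 in IR-A tumours and 4.32, 4.38 and 4.41 in control tumours, without overlap and with a difference of -0.16 (SE 0.09, adjusted p = 0.517 in limma), while ZEB2 itself differed by 0.05. ZEB1-AS1 differed by 0.11 (SE 0.15), against -0.17 for ZEB1. VIM-AS1 read 5.04, 5.04 and 5.04 in IR-A tumours and 5.52, 4.93 and 5.04 in control tumours, so control tumour 1 was highest for it as for VIM, while control tumour 3, the lowest for VIM, was not low. These transcripts were chosen after their values were seen.

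Control tumours differed among themselves in which was highest. Of 19 other mesenchymal genes, 12 (63.2%) had their highest control value in tumour 1, against 34.7% of all probe sets. Of 26 epithelial genes, 11 (42.3%) had their lowest control value there, against 28.6% of all probe sets. Nearly as many, 10 (38.5%, against 43.4% of all probe sets), had it in control tumour 2. In control tumour 1, 7 epithelial genes (26.9%, against 34.7%) had their highest control value and 3 mesenchymal genes (15.8%, against 28.6%) their lowest. The genes of a list are not independent, and no test was run on these counts.

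Of the 10 genes, 4 (ZEB1, TWIST1, TWIST2 and GRHL2) had exactly the same value on 2 arrays, and 24% of all probe sets repeated a value. For ZEB1 and TWIST1 the repeat joined IR-A tumour 2 and control tumour 2.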
